A study of Drosophila melanogaster with 3 samples.

Results

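The gap genes hb, Kr, kni, gt and tll carried 54 of the 16200 sites bound by Zelda (ZLD) in early Drosophila melanogaster embryos, and at each of 3 stages 18 of the 54, not always the same ones, were strongly bound. A gap gene site was a deposited ZLD peak whose interval midpoint lay in a window of the dm3 genome around 1 of the 5 genes, with midpoints within 150 bp of each other joined into 1 site across the 3 peak lists. The windows were chr3R:4505000-4535000 for hb, chr2R:21095000-21130000 for Kr, chr3L:20675000-20705000 for kni, chrX:2310000-2335000 for gt and chr3R:26665000-26690000 for tll. They held 37 of 11374 peaks at cycle 8, 37 of 10471 peaks at cycle 13 and 41 of 9432 peaks at late cycle 14.

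The study followed ZLD by chromatin immunoprecipitation and sequencing (ChIP-seq) in wild-type Oregon R embryos that were timed, sorted by hand and fixed at cycle 8 (mitotic cycles 8 to 9), cycle 13 (mitotic cycles 13 to 14) and late cycle 14. All 3 groups were untreated wild type and shared the same affinity-purified anti-ZLD antibody, from which antibodies against the zinc fingers had been removed, on 3.7, 6.6 and 6 µg of chromatin in the order of the stages. The sort went by the look of the embryos, so a pool can hold nuclei of neighbouring cycles, and each pool came from whole embryos, so that the share of nuclei bound at a site and the binding per nucleus cannot be told apart. There was 1 library per stage, so stage and library cannot be told apart either and no test between stages was possible.

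Gap genes are the first zygotic genes to divide the embryo along its anterior-posterior axis. Each encodes a transcription factor, is switched on by the maternal gradients and the terminal signal in a broad domain, and then represses its neighbours and drives the pair-rule genes. ZLD is a maternally supplied zinc-finger protein that binds CAGGTAG and related heptamers, and is known for activating the earliest zygotic transcription. The positions of known gap gene enhancers were not matched to the sites here.

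The level of a site was its scaled coverage, the number of reads, each extended to 150 bp, that covered the site's highest position, per 10000000 mapped reads. The late-to-early ratio is the log2 ratio of this coverage at late cycle 14 over cycle 8. The libraries held 13496488, 18870755 and 17481411 mapped reads from cycle 8 to late cycle 14, and the median coverage along the chromosome arms was 4.45, 3.71 and 3.43, which rested on 6, 7 and 6 reads. Distinct read positions made up 23.4%, 50.9% and 41.0% of the reads, so the cycle 8 library held the most copies, at 4.27 reads per position. The 95% intervals given here are exact and cover counting error only, and copies of the same fragment make them too narrow.

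The median gap gene site was stronger than the median ZLD site, and their levels did not move together. Coverage of 500 or more was found at 18 of 54 gap gene sites (33.3%) at cycle 8, where 8.27% of all sites reached it, at 18 at cycle 13 against 11.1% of all sites, and at 18 at late cycle 14 against 11.3%. Their median coverage was 190.0, 252 and 239 in the order of the stages, beside medians of 87.4, 85.3 and 75.5 over all sites. The sites of the primary pair-rule genes eve, h and run had comparable values, with 30.4%, 30.4% and 32.6% at 500 or more and medians of 270.1, 325 and 222. Those of the head and terminal gap genes hkb, ems and btd were nearer to all sites. They had 12.1%, 15.2% and 15.2% at 500 or more and medians of 71.9, 91.7 and 85.2. At cycle 8 the site just inside this limit had 501 (tll) and the site just outside it 499 (gt). Close neighbours share reads. Of the 45 gap gene sites 300 bp or more from the next, 13, 12 and 12 had 500 or more in the order of the stages (28.9%, 26.7% and 26.7%).

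A peak was called in all 3 lists at 25 gap gene sites (46.3%, interval 32.6 to 60.4%), against 31.8% of all sites. Of the other 29 sites, 9 were called only at cycle 8, 4 only at cycle 13 and 5 only at late cycle 14, 8 were shared by the later lists alone and 3 by the first and last. A site outside a list was seldom without signal, since 52 of the 54 stood at 2 times the arm median or higher at cycle 8 and all 54 did so at cycle 13 and at late cycle 14. With presence defined in that way, 96.3% were present at every stage, near the 92.0% of all sites.

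Between cycle 8 and late cycle 14, 18 gap gene sites were 2-fold or more higher at late cycle 14 (33.3%), 13 were 2-fold or more lower (24.1%) and 23 lay within 2-fold. Over all sites 34.3% were higher and 39.8% lower, so the share of gap gene sites that were higher was near the background. Their median late-to-early ratio was -0.02, beside -0.20 over all sites. Membership of a list rests on the same coverage, so that sites in 1 or 2 lists were in part selected on their difference. Among the 25 sites in all 3 lists, 4 were higher (16.0%) and 5 lower (20.0%), beside 32.3% higher and 16.6% lower among the 5155 such sites of the genome.

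At most sites the first step was the larger, as it was over all sites. At cycle 13, 15 gap gene sites were 2-fold or more higher than at cycle 8 (27.8%, against 32.1% of all sites) and 6 were lower (11.1%, against 26.4%). From cycle 13 to late cycle 14 only 2 sites were 2-fold or more higher (3.70%, against 4.10%) and 4 were lower (7.41%, against 25.8%). The first step was the larger at 38 of 54 sites (70.4%, against 67.8% of all sites), and the cycle 13 level lay between those of the other stages at 37 (68.5%, against 77.9% of all sites). It was higher at both steps at 21 sites (38.9%, against 35.7% of all sites) and lower at both at 16 (29.6%, against 42.3%). At gt the first step was the larger at only 4 of 10 sites.

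These counts depended on the treatment of copied reads and on scaling. With 1 read per position and strand, cycle 13 had 13 sites higher and 18 lower than cycle 8, in place of 15 and 6. The higher share was then 24.1% against 27.3% of all sites. The lower share was 33.3% against 23.6% of all sites, where with all reads it was below that of all sites. With median-of-ratios scaling it had 13 higher (24.1%, against 27.9% of all sites) and 10 lower (18.5%, against 30.5%). Late cycle 14 then had 7 sites higher than cycle 13 (13.0%, against 14.7%) and 1 lower (1.85%, against 15.7%), in place of 2 and 4. A site can hold at most 300 distinct positions, worth a scaled coverage of 949, 313 and 419 in the order of the stages, so that strong sites are bounded differently at each stage when copies are removed. A site with many distinct positions at cycle 8 then comes out lower at the later stages, whatever its binding. Strong sites were more frequent among gap gene sites, so their lower share without copies cannot be compared with that of all sites.

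**Figure D1:**
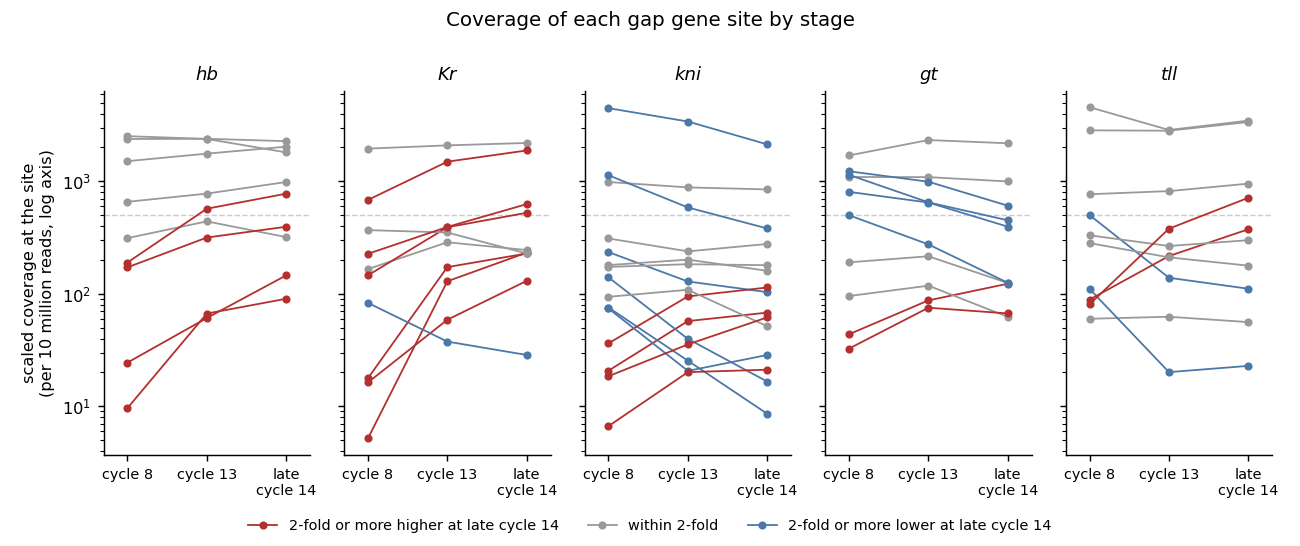
Scaled coverage (log axis) of each of the 54 gap gene sites at the 3 stages, in order of age, 1 panel per gene and 1 line per site, with the dashed line at 500. Lines that rise by 2-fold or more are most frequent at Kr (6 of 10 sites) and lines that fall at kni (6 of 15) and gt (4 of 10). Over all sites 34.3% rise and 39.8% fall by as much.

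hb encodes the zinc-finger protein Hunchback, which is supplied by the mother and made again in the anterior of the embryo, and is transcribed from an inner and an outer start. Its annotated span was chr3R:4517037-4523540 on the minus strand, with starts at 4523540 and 4520322. Its window held 9 sites, of which 4 were 2-fold or more higher at late cycle 14 and none was lower by as much. Beside this count and those of the genes below stand the shares over all sites, 34.3% higher and 39.8% lower.

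The hb sites that were strongest at cycle 8 stayed within 2-fold. The site at chr3R:4520372, 50 bp upstream of the inner start and labelled promoter, had a cycle 8 coverage of 2376, with 2388 at cycle 13 and 2273 at late cycle 14, a late-to-early ratio of -0.06 (interval -0.13 to 0.00). The intergenic site at chr3R:4524922, 1382 bp upstream of the outer start, had 2519, 2381 and 1807, a late-to-early ratio of -0.48 (-0.55 to -0.41). Scaled to mapped reads, the promoter site thus stayed within its counting error between cycle 8 and late cycle 14, while the upstream site was lower at late cycle 14 by less than 2-fold. The small ratio of the promoter site had no settled direction across scalings. Scaled to reads outside all sites, these sites had ratios of 0.18 and -0.23, and with median-of-ratios scaling 0.13 and -0.28. With 1 read per position and strand, where both held 298 of 300 positions at late cycle 14, their ratios were -1.02 and -1.07.

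Further upstream, neighbouring sites had more coverage at each later stage when all reads were counted. The site at chr3R:4526977, 3437 bp upstream of the outer start and labelled as an intron of CG8112, had 1510, 1762 and 2031, a late-to-early ratio of 0.43 (0.35 to 0.51). Its neighbours at chr3R:4526881 and chr3R:4526695 had 657, 777 and 986 and 190, 571 and 776 in the order of the stages, with late-to-early ratios of 0.59 (0.47 to 0.70) and 2.03 (1.84 to 2.23). These 3 sites each lay less than 300 bp from a neighbour, because the midpoints of wide peaks fell at different places in the 3 lists, and the closest pair, 96 bp apart, shares reads. Counted once per position and strand, these sites had, in the same order, ratios of -0.85, -0.30 and 0.85, so that the first 2 turned direction and the last fell within 2-fold. They held 236, 140 and 68 positions at cycle 8. The limit of 300 positions at late cycle 14 therefore allowed no rise at the first 2 and less than 2-fold at the last. With coverage taken at the middle of the joined midpoints that of chr3R:4526881 was 2.20.

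With all reads, the order of the hb sites therefore differed between stages. Within a library, where no scaling enters, the site at -1382 bp had 1.06 times the reads of the promoter site at cycle 8 (1.01 to 1.11), 0.997 times at cycle 13 (0.956 to 1.04) and 0.795 times at late cycle 14 (0.758 to 0.833). The site at -3437 bp had 0.636, 0.738 and 0.894 times the reads of the promoter site. At cycle 13 the promoter site and the site at -1382 bp could not be separated by counting error, and at late cycle 14 the promoter site was followed by the most distant of the 3. Counted once per position and strand, the promoter site and the site at -1382 bp held 266 and 276 positions at cycle 8. Both held 300 at cycle 13 and 298 at late cycle 14, of at most 300, so that their order at the later stages could not be told without copies. All pairs of sites compared within a library were chosen after their values were seen.

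Downstream of hb, coverage was low at cycle 8. The site at chr3R:4512110, 8212 bp downstream of the inner start, had 24.5, 60.9 and 146, a late-to-early ratio of 2.58 (2.05 to 3.15), and rested on 33 reads at 11 distinct positions at cycle 8. The other 3 hb sites had their highest coverage between 90.4 and 440.4.

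Kr encodes the zinc-finger protein Krüppel, made in the central domain of the embryo. Its span was chr2R:21114137-21117057 on the plus strand. Of its 10 sites 6 were 2-fold or more higher at late cycle 14 and 1 was lower. A cycle 13 level between those of the other stages was found at 9 of the 10, against 77.9% of all sites.

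With all reads the strongest Kr site stayed near its cycle 8 level, and the promoter gained. The intergenic site at chr2R:21110670, 3467 bp upstream of the start, had a cycle 8 coverage of 1952, with 2086 at cycle 13 and 2192 at late cycle 14, a late-to-early ratio of 0.17 (0.10 to 0.24). The promoter site at chr2R:21113944, 193 bp upstream, had 683, 1495 and 1879.7, a late-to-early ratio of 1.46 (1.35 to 1.57). Between them, the intergenic site at chr2R:21113114 (-1023 bp) had 227, 393 and 627, a late-to-early ratio of 1.47 (1.28 to 1.66).

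The promoter site had 0.350 times the reads of the site at -3467 bp at cycle 8 (0.324 to 0.377), 0.717 times at cycle 13 (0.683 to 0.752) and 0.858 times at late cycle 14 (0.818 to 0.899). These intervals did not overlap, and the ratio does not depend on library scaling. The gain could not be checked without copies. With 1 read per position and strand the promoter's late-to-early ratio was -0.34, that of the site at -1023 bp 0.38 and that of the site at -3467 bp -0.98. The promoter site then stood at 295 of 300 possible positions at cycle 13 and 298 at late cycle 14, against 166 at cycle 8. That limit is worth 419 at late cycle 14 and 949 at cycle 8, so the promoter's ratio could not have shown a rise.

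The largest ratio of the 54 sites was found far upstream of Kr. The site at chr2R:21098099, 16038 bp upstream, had 5.19, 129 and 232, a late-to-early ratio of 5.48 (4.43 to 6.81), with 7 reads at cycle 8 and 406 at late cycle 14. At cycle 8 it stood at 1.17 times the arm median, the lowest of the 54 sites. The site at chr2R:21103655 (-10482 bp) had 146, 391 and 525, a late-to-early ratio of 1.85 (1.62 to 2.08), and was called in all 3 lists.

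Against this direction, the site at chr2R:21110230 (-3907 bp), on the flank of the strongest site, had 368, 351 and 228, a late-to-early ratio of -0.69 (-0.88 to -0.50). The other 4 Kr sites had coverage from 16.3 to 166 at cycle 8 and from 28.6 to 245 at late cycle 14.

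kni encodes Knirps, a protein with a nuclear-receptor type zinc finger, made in the presumptive abdomen and in an anterior patch. Its span was chr3L:20685429-20688463 on the minus strand. It had the most sites, 15, of which 4 were 2-fold or more higher at late cycle 14 and 6 were lower.

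The strongest kni site lost coverage at both steps. At chr3L:20690514, 2051 bp upstream of the start, it had a cycle 8 coverage of 4468, with 3400.5 at cycle 13 and 2129 at late cycle 14, a late-to-early ratio of -1.07 (-1.13 to -1.01), and it was the strongest site of the window at every stage. Among all 16200 sites it ranked 46, then 89, then 391 by coverage through the stages. Scaled to the reads outside all sites its ratio was -0.82, within 2-fold. Its neighbour at chr3L:20689769 (-1306 bp) had 1132, 586 and 381, a late-to-early ratio of -1.57 (-1.70 to -1.44).

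Inside the gene the sites differed. The site at chr3L:20687792, in an intron 671 bp downstream of the start, had 985, 883 and 847, a late-to-early ratio of -0.22 (-0.33 to -0.11), and therefore 0.221, 0.260 and 0.398 times the reads of the site at -2051 bp in the 3 libraries. A weaker site in the gene at chr3L:20687445 (1018 bp downstream), singled out after its values were seen, had 235, 129 and 104, a late-to-early ratio of -1.18 (-1.45 to -0.91). The site at the kni promoter, chr3L:20688551 (-88 bp), was weak and had 36.3, 94.9 and 114, a late-to-early ratio of 1.65 (1.19 to 2.13). It was not called at cycle 8, where it rested on 49 reads at 11 positions.

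Downstream of kni, the site at chr3L:20679739 (8724 bp from the start) had 140.0, 39.7 and 16.6, a late-to-early ratio of -3.08 (-3.69 to -2.51), and was called at cycle 8 alone. The kni sites not described above had coverage from 6.67 to 310.4 at cycle 8 and from 8.58 to 277 at late cycle 14.

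gt encodes Giant, a bZIP protein made in an anterior and a posterior domain. Its span was chrX:2321139-2322996 on the minus strand, and all its 10 sites lay upstream of the start. Here 2 sites were 2-fold or more higher at late cycle 14 and 4 were lower.

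The gt promoter was the strongest site of the window at every stage. At chrX:2323110, 114 bp upstream of the start, it had a cycle 8 coverage of 1698, with 2327 at cycle 13 and 2178 at late cycle 14, a late-to-early ratio of 0.36 (0.28 to 0.43). With 1 read per position and strand, where it reached the limit of 300 positions at both later stages, the ratio was -0.95. Its share of the summed coverage of the gt sites was 24.9%, 35.9% and 42.5% at the 3 stages.

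With all reads, the sites about 2 kb upstream of gt diverged although they lay close together. The site at chrX:2324782 (-1786 bp) had 1093, 1089.5 and 997, a late-to-early ratio of -0.13 (-0.23 to -0.03). The site at chrX:2325105 (-2109 bp) had 1228, 991 and 607, a late-to-early ratio of -1.02 (-1.13 to -0.90), and the site at chrX:2325021 on its flank 805, 648 and 395, a late-to-early ratio of -1.03 (-1.17 to -0.89). The reads at -2109 bp were 1.12 times those at -1786 bp at cycle 8 (1.05 to 1.21), 0.910 times at cycle 13 (0.854 to 0.969) and 0.609 times at late cycle 14 (0.564 to 0.657), so that the order of the pair turned. No extended read covers both of them, whereas the site at chrX:2325021 lies 84 bp from that at -2109 bp and shares its reads. Scaled to the reads outside all sites, the ratios of these last 2 sites were -0.78 and -0.77, within 2-fold.

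The far upstream sites of gt fell further. The site at chrX:2332576 (-9580 bp) had 1140.3, 650.2 and 450.2, a late-to-early ratio of -1.34 (-1.47 to -1.22), and the site at chrX:2333145 (-10149 bp) had 499, 275 and 125, a late-to-early ratio of -2.00 (-2.22 to -1.77). Both are labelled intergenic with the start of tko, a mitochondrial ribosomal protein gene, as the nearest, so that their assignment to gt rests on the window alone. The weak site at chrX:2324085 (-1089 bp) moved the other way, with 43.7, 87.4 and 123 and a late-to-early ratio of 1.49 (1.07 to 1.93), and the other 3 gt sites had between 32.6 and 216 at any stage.

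tll encodes Tailless, an orphan nuclear receptor made at both ends of the embryo under the terminal signal. Its span was chr3R:26678036-26680095 on the plus strand. Its window held the most reads of the 5 at every stage. Of its 10 sites 2 were 2-fold or more higher at late cycle 14, 2 were lower and 6 lay within 2-fold.

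tll had 2 dominant sites. The intergenic site at chr3R:26675739, 2297 bp upstream of the start, had a cycle 8 coverage of 4556, with 2859 at cycle 13 and 3459.7 at late cycle 14, a late-to-early ratio of -0.40 (-0.45 to -0.35). The promoter site at chr3R:26677754 (-282 bp) had 2839, 2816 and 3369, a late-to-early ratio of 0.25 (0.19 to 0.31). The first had the highest coverage of the 54 gap gene sites at late cycle 14 and, with an interval that overlapped that of the kni site at -2051 bp, at cycle 8, and the promoter had 0.623, 0.985 and 0.974 times its reads at the 3 stages, so that at cycle 13 (0.948 to 1.02) and late cycle 14 (0.939 to 1.01) the 2 could not be separated by counting error. With 1 read per position and strand, where both are near the limit of 300 positions at every stage, the late-to-early ratios were -1.16 and -1.11.

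Between them, the intergenic site at chr3R:26676853 (-1183 bp) fell, with 501, 139 and 111 in the order of the stages, a late-to-early ratio of -2.17 (-2.41 to -1.94). It was called in all 3 lists and kept its fall within a library, with 0.177, 0.0493 and 0.0329 times the reads of the promoter site. The more distant site at chr3R:26671324 (-6712 bp) had 768, 818 and 954, a late-to-early ratio of 0.31 (0.20 to 0.43). That ratio was -0.52 with 1 read per position and strand. With 163 positions at cycle 8, the limit of 300 at late cycle 14 allowed no rise there. The site at chr3R:26669270 (-8766 bp) had 110.4, 20.1 and 22.9, a late-to-early ratio of -2.27 (-2.81 to -1.76).

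Downstream of tll the 4 sites differed in direction. The intergenic site at chr3R:26682418, 4382 bp downstream of the start, had 80.8, 379 and 714, a late-to-early ratio of 3.14 (2.86 to 3.44), and had 0.0285, 0.135 and 0.212 times the reads of the promoter site. Its ratio was 2.02 with 1 read per position and strand. It lies 268 bp from a neighbour with 331, 266 and 299.8, whose late-to-early ratio of -0.14 (-0.33 to 0.04) was within counting error. The next site, at chr3R:26682051, lies 99 bp from that neighbour and shares its reads. It had 282, 211 and 178, a late-to-early ratio of -0.67 (-0.89 to -0.45). The site nearest to the gene on this side, at chr3R:26681256 (3220 bp downstream), had 88.9, 217 and 375, a late-to-early ratio of 2.08 (1.79 to 2.37). It was called in all 3 lists. The remaining tll site, at -9139 bp, had a highest coverage of 62.5.

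**Figure D2:**
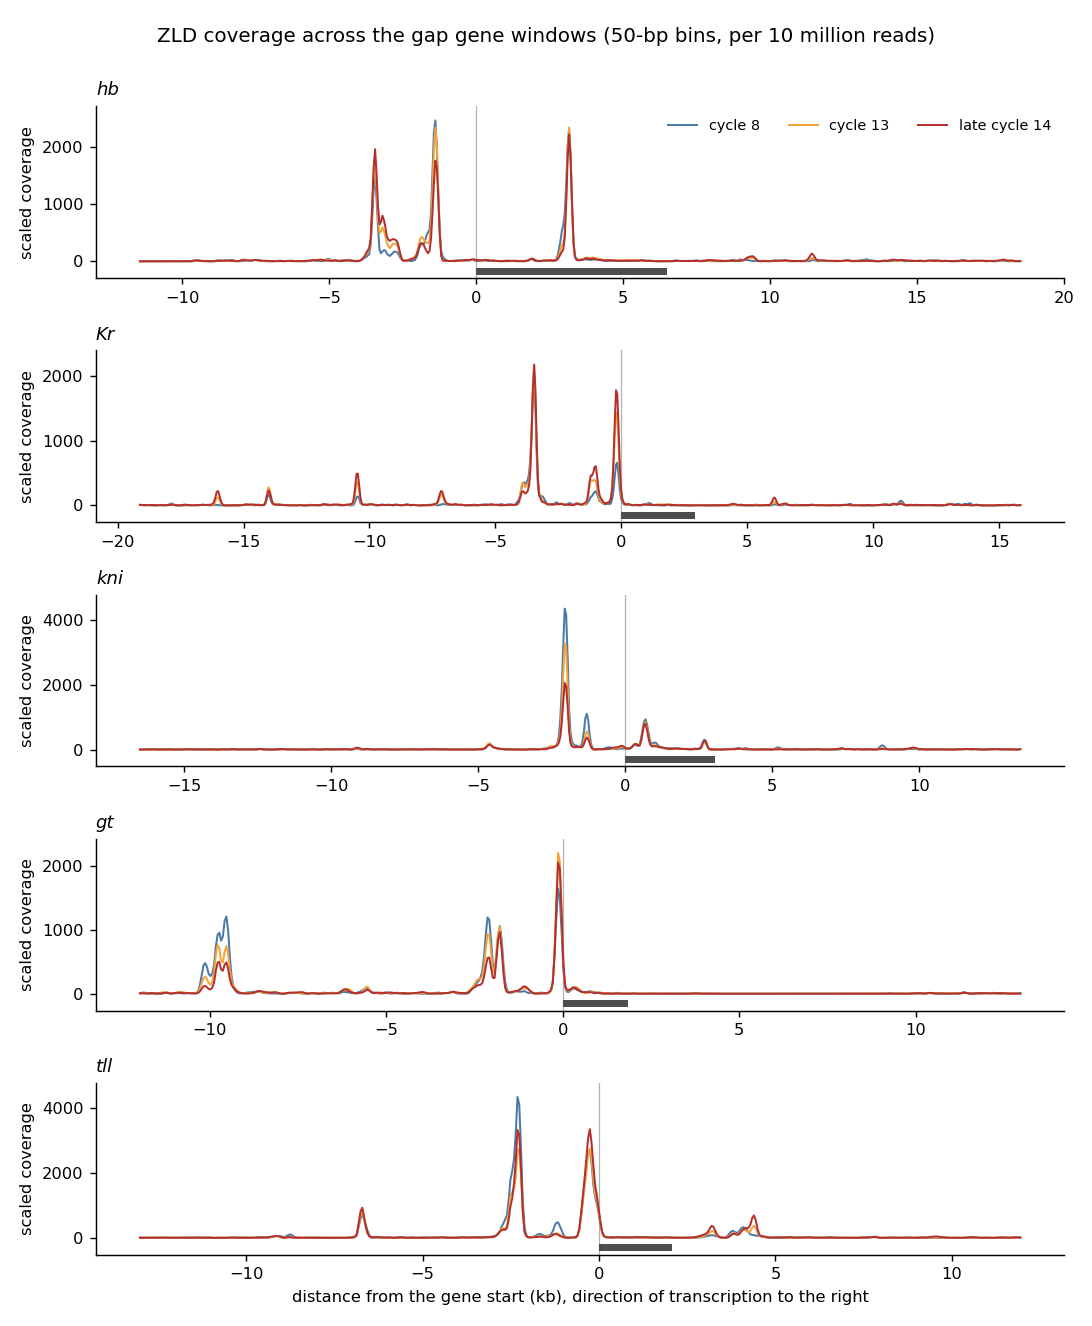
Scaled ZLD coverage (mean over 50-bp bins) along the 5 windows against the distance in kb from the gene start, for hb the outer start, with transcription to the right, the gene span as a grey bar and 1 line per stage. The gain of the Kr promoter, the fall of the kni site at -2051 bp and of the gt sites near -10 kb, and the nearly equal heights at the hb promoter can be read from the curves.

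Without copied reads the direction at the hb, Kr, gt and tll promoters could not be told. With all reads, of the 5 promoter sites (within 500 bp upstream or 150 bp downstream of a start) 2 were 2-fold or more higher at late cycle 14 (Kr and kni), none was lower by as much, and 3 lay within 2-fold (hb, gt and tll). With 1 read kept for each position and strand the ratios were -1.02 at hb, -0.34 at Kr, 2.17 at kni, -0.95 at gt and -1.11 at tll. The hb, Kr, gt and tll promoters held 266, 166, 256 and 285 positions at cycle 8. At late cycle 14 they held 298, 298, 300 and 300, of at most 300. That limit is worth 419 at late cycle 14 and 949 at cycle 8, so no rise could have shown at these promoters. With all reads, among the 16 sites more than 5000 bp from their gene, 7 were higher (43.75%) and 5 lower (31.25%). Among the 38 nearer sites 11 were higher (28.9%), 8 lower (21.1%) and 19 within 2-fold. Over all sites 34.3% were higher and 39.8% lower. Of the 18 sites with 500 or more at cycle 8, 17 lay upstream of their nearest start, as did 39 of all 54 (72.2%), the hb promoter site counted by its inner start although it lies inside the hb span.

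Sites strong at cycle 8 and sites strong at late cycle 14 gave different pictures, as each set was chosen by 1 side of the ratio. Of the 18 strong at cycle 8, 1 was 2-fold higher at late cycle 14 and 6 were lower, beside 17.2% higher and 35.0% lower among the 1339 such sites of the genome. Of the 18 strong at late cycle 14, 5 were higher and 2 lower, beside 1101 higher and 56 lower of 1836. In both sets 11 of 18 gap gene sites (61.1%) stayed within 2-fold, against 47.9% and 37.0% of all sites so chosen.

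**Figure D3:**
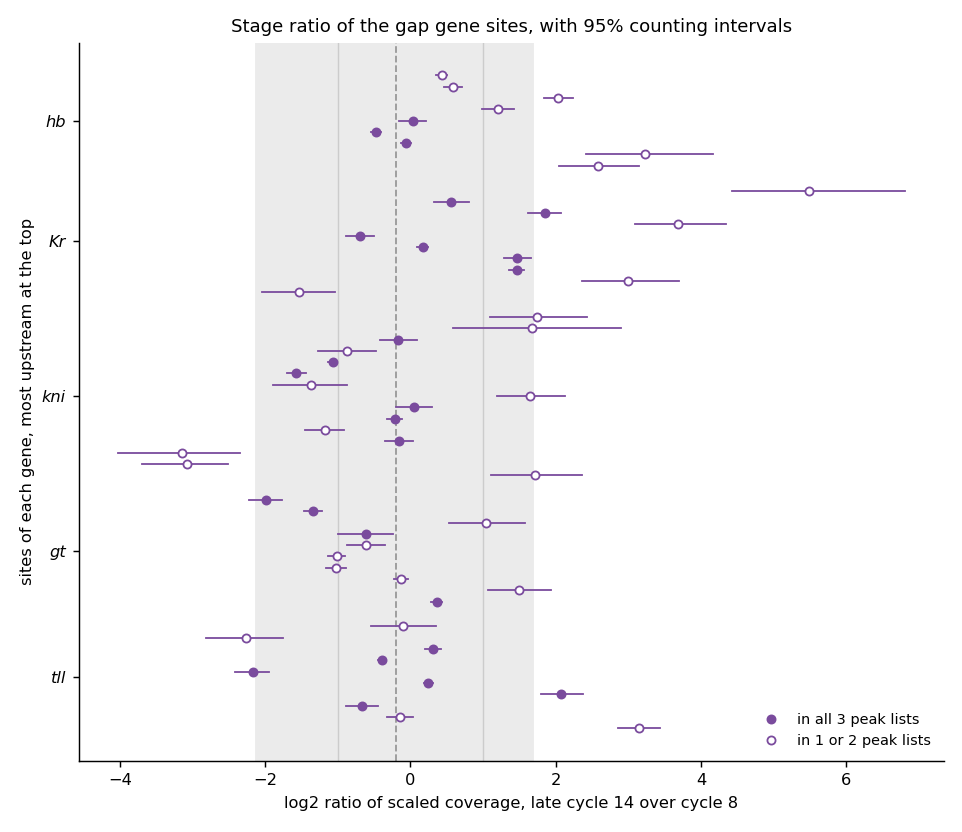
Log2 ratio of scaled coverage at late cycle 14 over cycle 8 for the 54 sites, ordered within each gene from upstream to downstream, with 95% counting intervals and filled points for sites in all 3 lists. The grey band holds the middle of all 16200 sites, from the lower quartile at -2.12 to the upper quartile at 1.68, with their median at -0.20 dashed, and the most changed gap gene sites are open points.

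Summed over whole windows, the genes differed in direction. Scaled to 10000000 reads, the Kr window held 7309 reads in the cycle 8 library, 9851 at cycle 13 and 11146 at late cycle 14, a late-to-early ratio of 0.61 (0.57 to 0.64). kni held 13290, 9953 and 7938, a late-to-early ratio of -0.74 (-0.78 to -0.71), and gt 11007, 10214 and 8168, a late-to-early ratio of -0.43 (-0.46 to -0.40). hb and tll were nearly level in this scaling, with late-to-early ratios of 0.09 (0.06 to 0.11) and -0.08 (-0.10 to -0.05). Window ratios were computed with all reads and this scaling only. Scaled to reads outside sites, the median log2 ratio of all sites moved from -0.20 to 0.05, so small window ratios have no settled direction. The effect of copied reads on the windows was not tested.

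Between 67.6% and 82.0% of the reads of a window lay within 150 bp of a site. More than 500 bp from any site the median coverage was between 0.50 and 1.33 times the arm median at cycle 8, between 1 and 2.14 times at cycle 13 and between 0.83 and 2.17 times at late cycle 14. The reads of the windows therefore came mostly from the sites described.

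Other early patterning genes also differed among themselves. Among the head and terminal gap genes, hkb and ems had late-to-early window ratios of 0.68 (0.65 to 0.71) and 0.53 (0.47 to 0.58), on the side of Kr, and btd had 0.02 (-0.04 to 0.07). Among the primary pair-rule genes, run and eve had -0.82 (-0.85 to -0.79) and -0.58 (-0.60 to -0.56), on the side of kni, and h had -0.14 (-0.16 to -0.12). The 33 sites of the head and terminal genes included 14 higher (42.4%) and 7 lower (21.2%) at late cycle 14. The 46 pair-rule sites included 8 higher (17.4%) and 15 lower (32.6%), beside 18 higher (33.3%) and 13 lower (24.1%) among the 54 gap gene sites. Over all sites 34.3% were higher and 39.8% lower. No test between these classes was run, and these window ratios too were computed with all reads and scaling to mapped reads only.

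**Figure D4:**
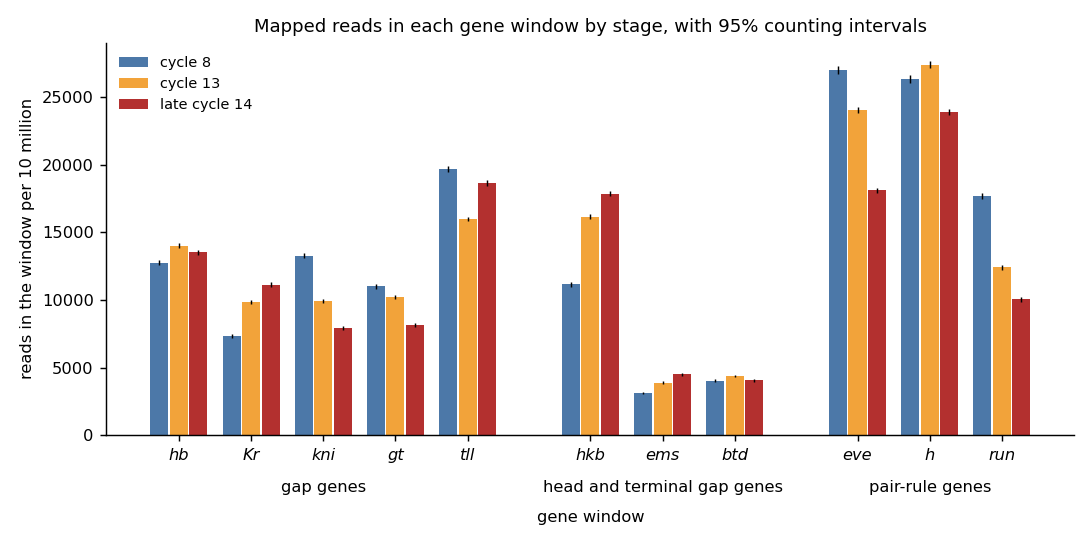
Scaled number of mapped reads in each gene window at the 3 stages, in order of age, with 95% counting intervals that cover counting error only, for the 5 gap genes, 3 head and terminal gap genes and 3 pair-rule genes. Bars climb through the stages at Kr, hkb and ems and descend at kni, gt, eve and run.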

How the data were processed

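ZLD ChIP-seq was analysed from 3 libraries, 1 per stage, grouped by the labels. The authors mapped reads with Bowtie 0.12.5 to dm3, keeping copies, and called peaks per library with Grizzly Peak. Peak heights are deposited as a signal, the coverage of reads extended to 150 bp with the library scaled to 10000000 reads. No input library was used here.

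From the deposited 25-bp reads, coverage was computed again with the same extension and scaling, for example 2376 at the hb promoter at cycle 8 against a deposited signal of 2343. Some sites close to others differed far more. At chr3R:4526695 (hb) coverage at cycle 13 was 571 against a deposited 1779. At chr2R:21110230 (Kr) it was 228 at late cycle 14 against 83.8. Each site was placed at the position of highest scaled coverage, averaged over the stages, within 75 bp of its joined midpoints. Ratios are of scaled coverage, with a floor of 3 reads, and were called past 2-fold. With 1 library per stage no test was run. Intervals at 95% were exact (Poisson for coverage, conditional binomial for ratios, Clopper-Pearson for shares) and cover counting error only. The text names every site of 500 or more at any stage, each promoter site, and the largest rise and fall of each window among sites of 100 or more. Functions were tested on simulated data. Gene spans, starts and labels came from the part of the paper's annotation used here, and other sequence and enhancer annotation was not used. hkb, ems, btd, eve, h and run had windows of 12000 bp on both sides of the gene. The members, comparison genes and lists were chosen with earlier results of these data known. Python 3.11.15, numpy 2.4.6, scipy 1.17.1, pandas 2.3.3 and matplotlib 3.10.9 were used.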

Additional observations from a re-analysis of the deposited data

How the results depend on the processing

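No paired analysis was possible because each stage had 1 library, and for the same reason no library could be left out. Counts are given for gap gene sites 2-fold or more lower and higher at late cycle 14 than at cycle 8 (13 and 18), at cycle 13 than at cycle 8 (6 and 15) and at late cycle 14 than at cycle 13 (4 and 2), in that order, and only those that moved by more than 1.5 times are named. Keeping the higher-scoring peaks of each list, split at its median, left 35 sites and gave 8 and 9, 2 and 7, and 2 and 0. The shares were 22.9% and 25.7%, 5.71% and 20%, and 5.71% and 0%. Over all sites so kept they were 36.1% and 37.2%, 22.2% and 35.3%, and 27% and 3.27%. Sites within 5000 bp of the gene, 38 sites, gave 8 and 11, 3 and 9, and 2 lower. The shares were 21.1% and 28.9%, 7.89% and 23.7%, and 5.26%. Over all sites, wherever they lay, they were 39.8% and 34.3%, 26.4% and 32.1%, and 25.8%. Sites in all 3 lists, 25 sites, gave 5 and 4, 1 and 3, and 1 and 0. The shares were 20% and 16%, 4% and 12%, and 4% and 0%. Over all sites in all 3 lists they were 16.6% and 32.3%, 4.15% and 29.6%, and 11.5% and 0.66%. These 3 settings hold fewer sites by construction. One read per position and strand gave 18 lower at cycle 13 (33.3%, against 23.6% of all sites). From cycle 13 to late cycle 14 it gave 2 and 1 (3.7% and 1.85%, against 19.3% and 1.69%). Median-of-ratios scaling gave 10 lower at cycle 13 (18.5%, against 30.5% of all sites). From cycle 13 to late cycle 14 it gave 1 and 7 (1.85% and 13%, against 15.7% and 14.7%). A fold threshold of 1.5 gave 11 lower at cycle 13 (20.4%, against 34.9% of all sites). From cycle 13 to late cycle 14 it gave 11 and 7 (20.4% and 13%, against 39.3% and 15.5%). Against cycle 8, a threshold of 3 gave 5 lower at late cycle 14 (9.26%, against 32.4%) and 7 higher at cycle 13 (13%, against 20.8%). From cycle 13 to late cycle 14 it gave 0 and 0, against 12.2% and 0.179% of all sites. The share of sites in all 3 lists (46.3%) became 96.3% with presence at 2 times the arm median and stayed between 35.6% and 56.2% under the other settings. The median log2 ratio of all sites, -0.20, became 0.05 with scaling to reads outside sites and 0.00 with median-of-ratios scaling.

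Among the 30 named sites, the Kr promoter alone changed sign from a 2-fold difference, at -0.34 with 1 read per position and strand. With that setting 14 of the 18 named sites past 2-fold stayed past it, 6 of 9 higher and 8 of 9 lower, and 4 others became lower by 2-fold or more, at the hb promoter (-1.02), the hb site at -1382 bp (-1.07), the tll promoter (-1.11) and the tll site at -2297 bp (-1.16). These 4, and the kni site at -2051 bp among the 8, held 266 to 295 positions at cycle 8. The limit of 300 positions at late cycle 14 therefore forced them lower by 2-fold or more, whatever their binding. The sites lost were the Kr promoter, the Kr site at -1023 bp, the hb site at chr3R:4526695 and, by a small margin (-1.03 with all reads, -0.97 so counted), the gt site at chrX:2325021. The Kr and hb sites among them held 166, 89 and 68 positions at cycle 8, so the limit allowed them no 2-fold rise. Joining at peak centres of highest coverage and leaving out sites closer than 300 bp were chosen after seeing the data and moved none of these counts by over 1.5 times. Coverage within 300 bp has another scale, so it gave no count of sites of 500 or more. Depth limits the weakest sites, such as 7 reads at the Kr site at -16038 bp at cycle 8.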

Other observations

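The gap gene windows held 37.2 sites per 100 kb, beside 13.1 per 100 kb along the chromosome arms. The 6 comparison windows spanned this value, with 90.1 at eve, 62.4 at hkb, 50.9 at h, 37.4 at ems, 33.5 at run and 25.6 at btd. The windows were placed on patterning genes, so the arms are no matched set.

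The tll promoter site was broader than the other strong gap gene promoters. Its width at 50% of its height was 294 bp at cycle 8, 301 bp at cycle 13 and 301 bp at late cycle 14. The hb promoter site measured 198, 181 and 185 bp, the Kr promoter site 195, 206 and 199 bp and the gt promoter site 186, 177 and 175 bp. No test was possible with 1 library per stage.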
